A study of Gallus gallus with 4 samples.

Results

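Small RNAs from 3 rows of a transposable element (TE) count table were examined in the head of the early chick embryo (Gallus gallus). They are GGERVK1-int, GGERVK10-int and EAVHP_I-int, the rows whose names begin with GGERVK or EAV, out of 241 TE rows and 24689 rows in all tables. The ending -int marks the internal part of a retroviral element, between its long terminal repeats (LTRs). The tissue was the cranial midbrain region of wild-type embryos at Hamburger-Hamilton stage 9 minus, reached after about 30 h at 37 °C, and RNA of 19 to about 38 nucleotides was selected. RNA of each sample was divided into a portion treated with sodium periodate (oxidized libraries, n = 2) and an untreated portion (total libraries, n = 2). The labels give no strain, sex or number of embryos, and do not state whether the replicates are separate pools, so the p-values reflect variation among these 4 libraries that may be technical.

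Endogenous retroviruses are remains of retroviral infections of the germ line, and their internal part holds gag, pol and, in some families, env. GGERVK elements take their name from the ERVK group, whose relatives are the betaretroviruses. EAV-HP is a family of endogenous avian retroviruses related to the avian leukosis viruses, known for an env gene very similar to that of subgroup J avian leukosis virus and for an insertion that gives blue eggshells. PIWI-interacting RNAs (piRNAs) guide PIWI proteins to TE transcripts. Those antisense to an element can pair with its transcripts, and those in sense arise from transcripts that are themselves cut. A methyl group on the last ribose protects piRNAs from periodate, whereas the unprotected ends of most vertebrate miRNAs are destroyed, so the comparison of oxidized with total libraries asks which small RNAs are protected in this way.

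The library sizes, summed over all 6 count tables, were 10981001 and 14081954 reads in oxidized replicates 1 and 2, compared with 17962725 and 14946049 in total replicates 1 and 2. A level is given as counts per 1000000 of these reads (CPM), so a fold change compares shares of a library. TE reads made up 48.5% and 46.1% of the oxidized libraries and 0.868% and 1.01% of the total libraries. A level is a share of small RNA from bulk tissue, so fewer cells and less RNA per cell cannot be told apart. Neither element length nor copy number was used, and levels are not compared between rows. How reads that map to several places were treated is not given in the sources used here, so the split of reads between related elements is uncertain.

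All 3 elements had a higher share of reads in the oxidized libraries than in the total libraries, and in none did the groups overlap, as in 72.4% of tested TE rows and 19% of all tested rows. By edgeR's quasi-likelihood test with Benjamini-Hochberg adjustment over all 1326 rows tested, 3 of 3 passed at 0.05 in the higher direction, where 15.7% of all tested rows and 67.6% of the 105 tested TE rows did so. A higher share after oxidation was thus the usual state of a TE row. For GGERVK1-int and EAVHP_I-int no difference from the change of the other TE reads was detected. Those reads were pooled, so abundant rows weigh most. The change was smaller for GGERVK10-int, which had few reads.

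GGERVK1-int, one of the 2 ERVK-like elements, had 6257 and 11051 reads in the oxidized libraries, compared with 161 and 241 in the total libraries. These counts are 569.8 and 785 CPM after oxidation and 8.96 and 16.1 CPM in total RNA. Both oxidized libraries lay far above both total libraries, the lower of them 35.3-fold above the higher total library. The mean was 677 ± 152 CPM in the oxidized libraries and 12.5 ± 5.06 CPM in the total libraries (SD, n = 2 each), a ratio of 54.0. The fitted log2 fold change was 5.75 (SE 0.51, 95% interval 4.32 to 7.19, edgeR adjusted p = 0.0055). With library sizes that exclude miRNA, which shift the median of all rows by -1.74, it was 3.98 (adjusted p = 0.0037).

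EAVHP_I-int, the internal part of EAV-HP, had 2729 and 3754 reads in the oxidized libraries, compared with 91 and 88 in the total libraries. In CPM the replicates lay close together, at 249 and 267 after oxidation and 5.07 and 5.89 in total RNA. The lower oxidized library was 42.2-fold above the higher total library. The means were 258 ± 12.8 CPM in oxidized and 5.48 ± 0.581 CPM in total libraries (SD, n = 2 each), a ratio of 47.0, with a log2 fold change of 5.55 (SE 0.35, 95% interval 4.55 to 6.56, edgeR adjusted p = 0.0027). Without miRNA in the library sizes the log2 fold change was 3.74 (adjusted p = 0.0040).

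GGERVK10-int, the other ERVK-like element, was scarce everywhere. It had 149 and 285 reads in the oxidized libraries, compared with 49 and 17 in the total libraries. That is 13.6 and 20.2 CPM after oxidation and 2.73 and 1.14 CPM in total RNA, again with no overlap. The mean rose 8.75-fold, to 16.9 ± 4.72 CPM in oxidized libraries against 1.93 ± 1.12 CPM in total libraries (SD, n = 2 each), with a log2 fold change of 3.12 (SE 0.80, 95% interval 0.86 to 5.38, edgeR adjusted p = 0.027). The call did not hold when a total library was removed (log2 fold change 3.88 without replicate 1 and 2.63 without replicate 2). Fewer TE rows were called higher in these fits as well. The call was also lost with no filter on low counts (edgeR adjusted p = 0.067). With library sizes that exclude miRNA it was lost too (log2 fold change 1.22, edgeR adjusted p = 0.26). Over the 10 alternatives run, its adjusted p ranged from 1.9e-09 to 0.43 and its direction stayed higher.

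The depth of the oxidized libraries in distinct molecules bears on the scarcest counts. Rows of the other-gene table that reached 20 reads in a single oxidized library, with none in its replicate, had a median of 122 reads in oxidized replicate 1 (202 rows) and 130.5 reads in oxidized replicate 2 (218 rows). The reads of GGERVK10-int were 1.22 and 2.18 times these medians. Those of EAVHP_I-int were 22.4 and 28.8 times them, and those of GGERVK1-int 51.3 and 84.7 times. If such a median stood for the copies of 1 molecule, which was not tested, GGERVK10-int would rest on about that many molecules.

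**Figure D1:**
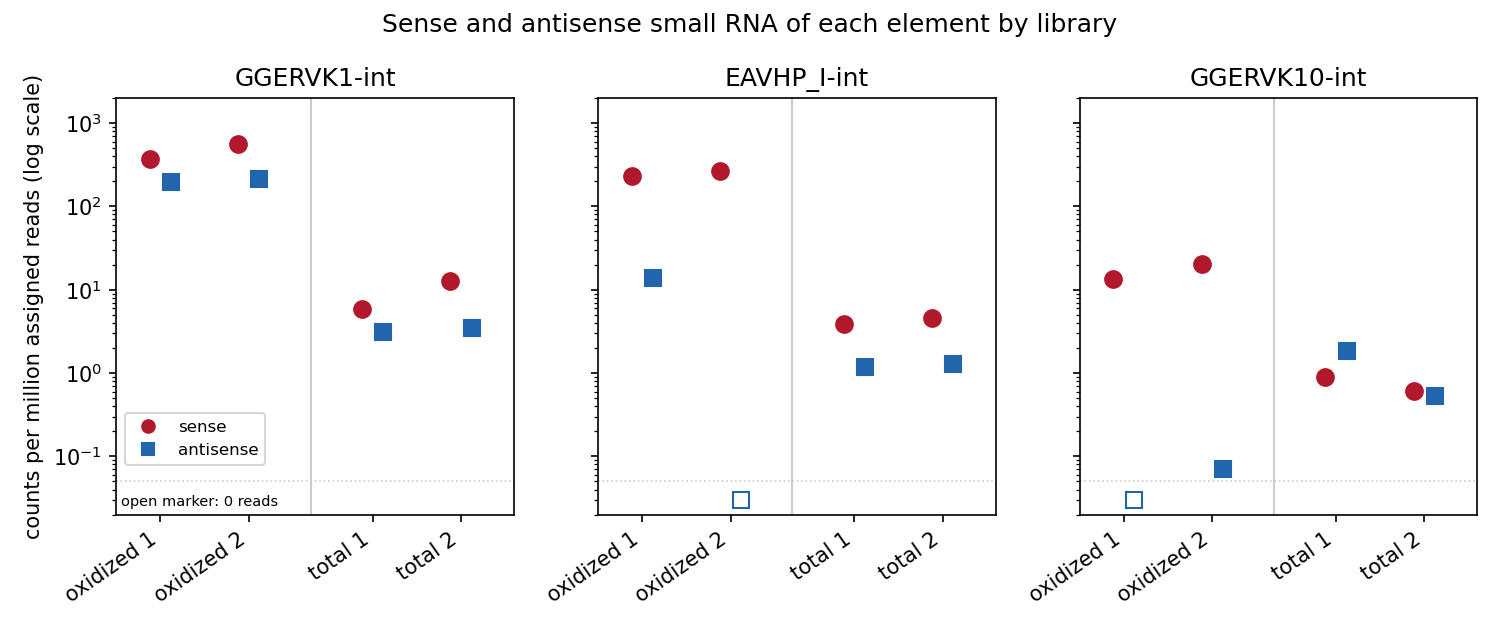
Sense (red circles) and antisense (blue squares) small RNA of the 3 elements in the 4 libraries, in CPM on a log axis; open markers stand for 0 reads and are drawn at the foot of the panel. Sense levels of all 3 elements were higher in both oxidized libraries than in both total libraries, while antisense levels did so for GGERVK1-int alone.

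Reads of the 3 elements came mainly from the sense strand after oxidation. The sense share, that is 1 minus reverse-strand reads over reads on either strand, was measured in each library. Reverse-strand counts were taken to be antisense, since they held at most 0.00257% of tRNA reads, and the strand of tRNA is known. Small RNAs of the other 238 TE rows together were mostly antisense, with a sense share of 3.56% and 4.28% in the oxidized libraries and 24.2% and 19.8% in total RNA.

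GGERVK1-int had a sense share of 65.5% and 72.4% in the oxidized libraries, compared with 65.2% and 78.4% in the total libraries. It produced reads from both strands before and after oxidation, with sense in the majority in each library. Its mean sense share was 68.97% ± 4.92 in oxidized and 71.8% ± 9.34 in total libraries (SD, n = 2 each), a difference of -2.85 percentage points within the spread of the replicates (exact two-sided permutation test, p = 1). The exact 95% binomial intervals, which cover counting error alone since copies made by PCR are not independent molecules, were 64.3 to 66.7% and 71.6 to 73.3% after oxidation and 57.3 to 72.5% and 72.7 to 83.4% in total RNA.

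EAVHP_I-int was nearly all sense after oxidation, at 94.4% and 100% in the oxidized libraries, compared with 76.9% and 78.4% in the total libraries. In oxidized replicate 2 none of its 3754 reads was antisense. That allows an antisense level of up to 0.213 CPM (3 reads) if each read is independent, and a higher level if reads are PCR copies. Oxidized replicate 1 had 152 antisense reads. Those 152 reads were 1.25 times the median of gene rows seen in that library alone. The mean sense share was 97.2% ± 3.94 in oxidized and 77.7% ± 1.05 in total libraries (SD, n = 2 each), 19.5 percentage points higher after oxidation. The exact two-sided permutation p was 0.333, the smallest that 2 libraries against 2 allow, and 0.667 after Benjamini-Hochberg adjustment over the 2 elements tested. How many other TE rows also separate the groups in sense share was not counted.

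GGERVK10-int differed most between the groups, with a sense share of 100% and 99.6% in the oxidized libraries, compared with 32.7% and 52.9% in the total libraries. It was not tested, because total replicate 2 held only 17 reads, under the minimum of 20. The exact 95% interval of its sense share was 19.9 to 47.5% in total replicate 1 and 27.8 to 77.0% in total replicate 2. Its antisense reads numbered 0 and 1 in the oxidized libraries, compared with 33 and 8 in the total libraries. The ratio of these antisense shares of assigned reads was 0.032, with an exact 95% counting interval of 0.00079 to 0.189. At an unchanged share 31.2 antisense reads would be expected over both oxidized libraries, which is 0.247 of the median of rows seen in 1 oxidized library. Whether that median stands for copies of a molecule was not tested, and the counting interval takes each read as independent.

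**Figure D2:**
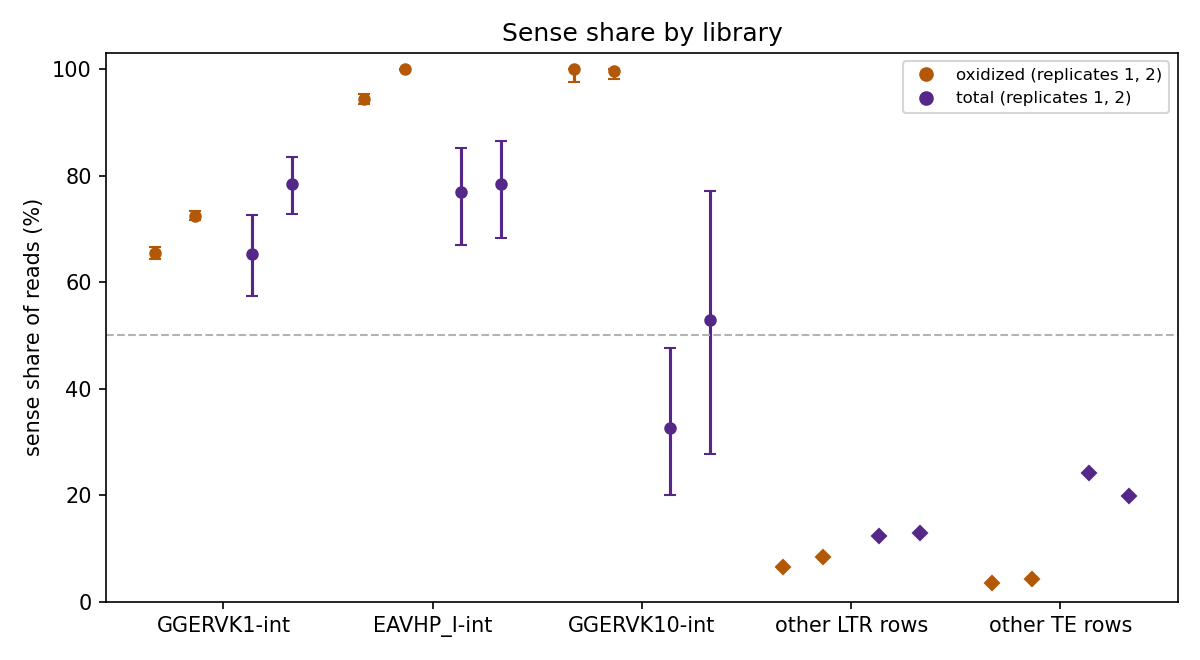
Sense share of the reads in percent for the 3 elements, with exact 95% binomial intervals for counting error, and pooled over the other LTR rows and the other TE rows (diamonds); orange stands for oxidized and purple for total libraries, and the dashed line marks 50%. The oxidized libraries lie at 65.5% or above for each element and at 8.45% or below for the pooled rows.

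Each element had a higher sense share than the other TE reads in 4 of 4 libraries. The excess was 41.1 to 68.2 percentage points for GGERVK1-int, 52.8 to 95.7 for EAVHP_I-int and 8.49 to 96.4 for GGERVK10-int. The excess of 8.49 points, in total replicate 1, was within counting error. There GGERVK10-int had 49 reads and a sense share of 32.7%, with an exact binomial interval of 19.9 to 47.5%. That interval includes the 24.2% of the other TE reads in the same library. These other reads are pooled, so their most abundant rows weigh most. The median over single other rows was 8.10% after oxidation (74 rows) and 23.6% in total RNA (61 rows). The median after oxidation lay above the pool of either oxidized library, so exceeding the pool there was not particular to these elements. How many other rows also exceeded the pool in every library was not counted. An exact two-sided sign-flip permutation test over the 4 libraries gave p = 0.125 for GGERVK1-int and for EAVHP_I-int, and 0.125 after adjustment over both, the smallest value that 4 libraries allow. Oxidized and total portions of a sample are not independent, which this test does not take into account.

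Most rows of similar kind leaned to antisense. Of the 77 TE rows with at least 20 reads in both oxidized libraries, 17, or 22.1%, had a sense share over 50% in both, namely these 3 elements and 14 of the 74 others. Among the other LTR rows 11 of 46 did so, with a median sense share of 10.2% after oxidation. None of the 5 GGERVL rows and none of the 7 numbered GGERV rows did, with median shares of 4.91% and 6.73%. Of the 4 ENS rows 1 did, with a median of 12.4%. Other internal parts, the same part of an element as these 3 rows, were more mixed. Of these, 4 of 11 had a sense share over 50% in both oxidized libraries, with a median of 43.0%. With so few rows, these counts are a description. The minimum of 20 reads lies below 122 and 130.5, the medians of gene rows seen in 1 oxidized library. Shares of scarce rows are therefore imprecise.

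Because their sense share was above that of the other TE reads, the 3 elements weighed more among sense than among antisense reads. They held 3.48% and 4.16% of the sense TE reads after oxidation, compared with 0.506% and 0.885% in the total libraries. Of the antisense TE reads they held 0.0450% and 0.0491% in the oxidized libraries, compared with 0.0932% and 0.0652% in the total libraries. GGERVK1-int supplied most of the sense reads, 4098 and 8006 of the 6824 and 12044 that the 3 elements had in oxidized replicates 1 and 2. Their pooled sense share was 74.7% and 79.8% in the oxidized libraries, compared with 63.5% and 77.2% in the total libraries. That of the other TE rows was 3.56% and 4.28% after oxidation and 24.2% and 19.8% in total RNA. This lower share after oxidation also enters the percentages of sense TE reads above.

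Sense and antisense reads were then fitted separately, each on the same library sizes. All 3 elements rose in sense reads, where 13.8% of the 1193 rows tested and 67.5% of the 80 TE rows were called higher. Sense EAVHP_I-int stood at 235 and 267 CPM in oxidized libraries, compared with 3.90 and 4.62 CPM in total libraries. Its log2 fold change was 5.88 (SE 0.37, edgeR adjusted p = 0.0044). Sense GGERVK1-int stood at 373 and 569 CPM after oxidation, against 5.85 and 12.6 CPM in total RNA (log2 fold change 5.67, SE 0.63, edgeR adjusted p = 0.0063). Sense GGERVK10-int stood at 13.6 and 20.2 CPM after oxidation, against 0.891 and 0.602 CPM in total RNA, or 149 and 284 reads against 16 and 9. It reached a log2 fold change of 4.48 (SE 0.74, edgeR adjusted p = 0.011), above the 3.12 of both strands together. With 16 and 9 reads in total RNA, this row passed the filter on low counts only through its oxidized libraries. Its sense call is therefore no separate support. All 3 sense calls were lost without total replicate 1, at log2 fold changes of 5.76 for EAVHP_I-int, 5.22 for GGERVK1-int and 4.79 for GGERVK10-int (adjusted p = 0.059, 0.066 and 0.31 in that order). They were also lost without total replicate 2, at log2 fold changes of 6.0, 6.33 and 4.23 (adjusted p = 0.058, 0.056 and 0.33 in the same order).

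In antisense reads GGERVK1-int was the element that rose. It stood at 197 and 216 CPM in the oxidized libraries, compared with 3.12 and 3.48 CPM in the total libraries, and its replicates lay closer together on this strand than in sense. The log2 fold change was 5.96 (SE 0.40, edgeR adjusted p = 6.0e-05), where 50% of the 210 rows tested and 76.5% of the 85 TE rows were called higher. Its gain in antisense thus came to 62.6-fold in mean CPM beside 50.9-fold in sense, and the difference between these was not tested. Relative to reverse-strand reads it was smaller, 1.56 with TMM factors and 0.90 with DESeq2, settings that shift the median of all rows by -4.36 and -5.03.

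Antisense EAVHP_I-int did not pass. Its levels were 13.8 and 0 CPM in the oxidized libraries, compared with 1.17 and 1.27 CPM in the total libraries, so that 1 oxidized library lay above and the other below both total libraries. The log2 fold change was 2.49 with a 95% interval of -2.66 to 7.64 (edgeR adjusted p = 0.30), and it was -1.82 with TMM factors and -2.40 with DESeq2. Without oxidized replicate 1 the row was called lower (log2 fold change -7.26, adjusted p = 9.6e-07), and without oxidized replicate 2 it was called higher (3.50, adjusted p = 2.9e-19). Antisense GGERVK10-int was too scarce for the filter on low counts. In the antisense fit, 33.3% of all rows and 14.1% of TE rows were called lower. With no filter 13 of 155 TE rows were called lower. GGERVK10-int was among these, at a log2 fold change of -4.67 (edgeR adjusted p = 0.043), a call that rests on 1 read after oxidation and 41 in total RNA.

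**Figure D3:**
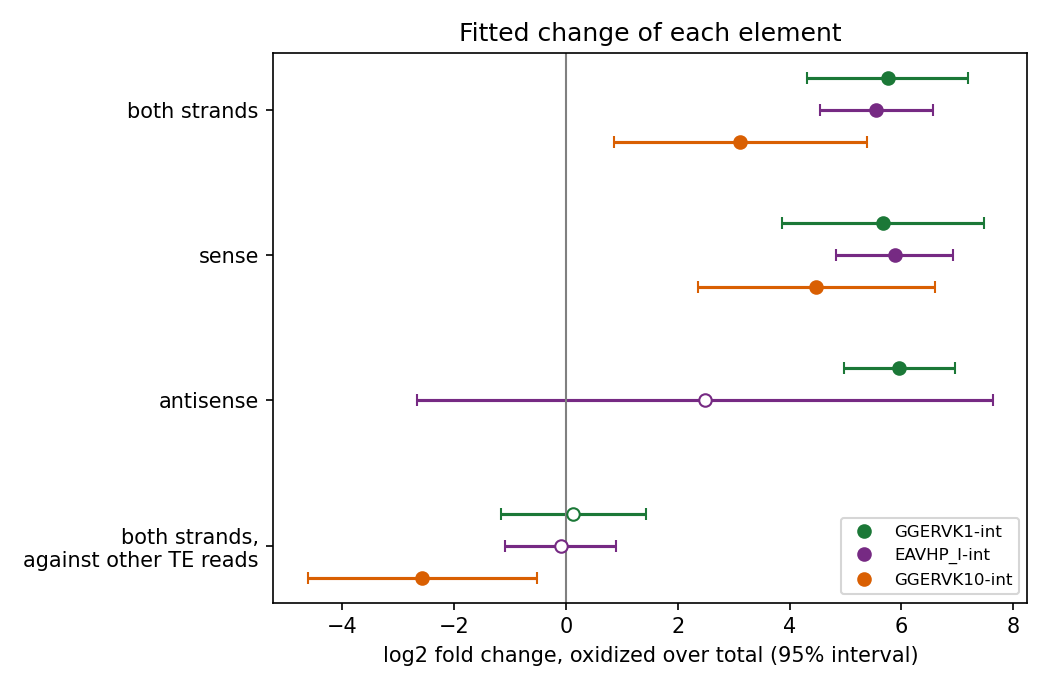
Fitted log2 fold changes of oxidized over total libraries for the 3 elements, with 95% intervals from edgeR's quasi-likelihood fit, on both strands, in sense, in antisense and on both strands scaled to the other TE reads; filled points have an adjusted p under 0.05. On both strands all 3 lie above 0, whereas against the other TE reads GGERVK1-int and EAVHP_I-int lie near 0 and GGERVK10-int at -2.57.

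Scaling each library to its other TE reads tested whether an element gained more or less than TE reads did as a whole. GGERVK1-int made up 0.117% and 0.170% of TE reads in the oxidized libraries, compared with 0.103% and 0.159% in the total libraries. Its log2 fold change relative to the other TE reads was 0.13 (95% interval -1.16 to 1.43, edgeR adjusted p = 0.80), a value that turns to -0.24 when scaled to the other LTR reads. EAVHP_I-int made up 0.0512% and 0.0578% of TE reads after oxidation, against 0.0584% and 0.0582% in total RNA (log2 fold change -0.10, 95% interval -1.08 to 0.89, edgeR adjusted p = 0.80). For neither element was a difference from the other TE reads detectable, and the intervals allow ratios of 0.446 to 2.69 for GGERVK1-int and of 0.473 to 1.85 for EAVHP_I-int.

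GGERVK10-int fell behind the other TE reads. Its share of TE reads was 0.00280% and 0.00439% in the oxidized libraries, compared with 0.0314% and 0.0112% in the total libraries. The relative log2 fold change was -2.57 (SE 0.71, edgeR adjusted p = 0.036), in a fit where 75.2% of all rows and 41% of TE rows were called lower. The call again did not hold when a total library was removed (log2 fold change -1.65 without replicate 1 and -3.13 without replicate 2). Far fewer TE rows were called lower in these fits as well, so the loss was not particular to GGERVK10-int.

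Among the 105 TE rows tested, 21 had a higher log2 fold change than GGERVK1-int, 29 a higher one than EAVHP_I-int and 66 a higher one than GGERVK10-int. The median was 4.02 over the 102 other TE rows tested, of which 68 rose and 19 fell, and 5.19 over the 54 other LTR rows tested, of which 43 rose and 5 fell. The median of the 5 GGERVL rows was 6.09, that of the 7 numbered GGERV rows tested 5.72 and that of the 4 ENS rows 5.46, and all of these rows rose. GGERVK1-int at 5.75 and EAVHP_I-int at 5.55 stood within this range, and GGERVK10-int at 3.12 below it.

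GGERVK1-int and EAVHP_I-int were also set against each other within a library, where library size cancels. The log2 ratio of GGERVK1-int to EAVHP_I-int reads was 1.20 and 1.56 in the oxidized libraries, compared with 0.82 and 1.45 in the total libraries. The difference between the group means was 0.24, and the groups overlapped (exact two-sided permutation test, p = 0.667, 1 pair compared). GGERVK10-int was left out of this comparison for its 17 reads in total replicate 2.

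**Figure D4:**
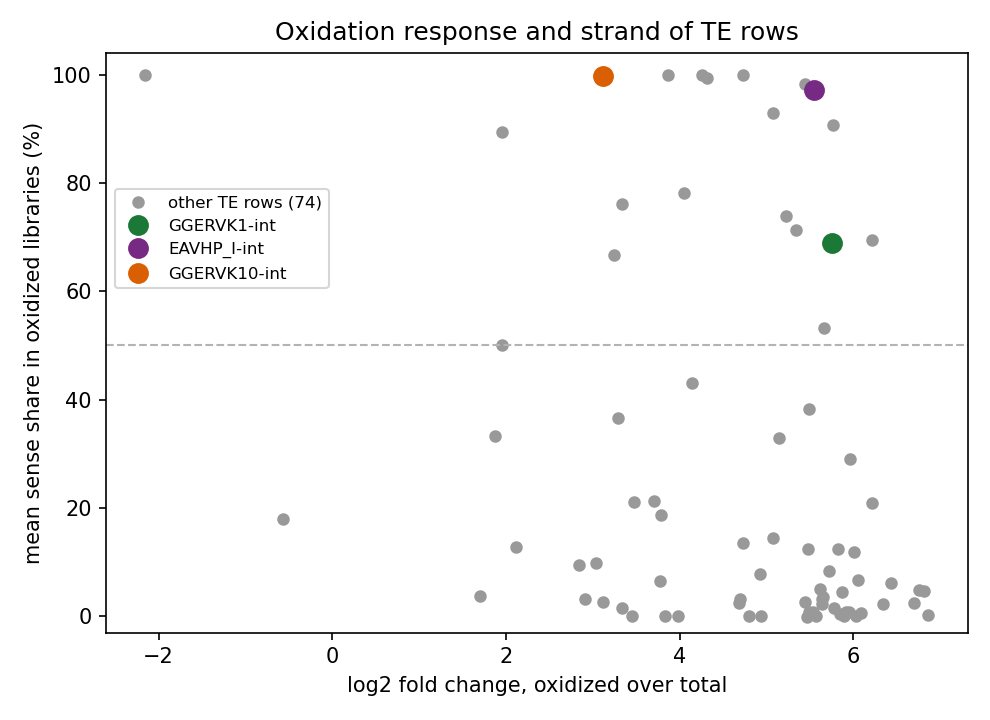
Mean sense share in the oxidized libraries in percent against the log2 fold change of oxidized over total libraries, for the 77 TE rows with at least 20 reads in both oxidized libraries; grey points are the other 74 rows and the dashed line marks 50%. Most grey points lie at the lower right, high in fold change and low in sense share, while the 3 elements lie above the line.

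The TE rows most like these elements were sought over sense and antisense levels in the 4 libraries, 8 values per row on a log2(CPM + 1) scale, each row centred on its own mean, among 61 other rows with at least 20 reads in every library. The nearest to GGERVK1-int were GGLTR3F1 (distance 1.24), GGERVL-A-int (1.77) and GGLTR7A (2.65), where the median distance was 7.33. GGLTR3F1, an LTR row, had sense shares of 71.7% and 67.2% in the oxidized libraries, compared with 61.3% and 54.9% in the total libraries. Like GGERVK1-int, it had reads of both strands in each library, a likeness that the selection on both strands favours. GGERVL-A-int, an internal row, was near an even split, with 47.8% and 58.5% sense after oxidation and 45% and 45.9% in total RNA.

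The nearest to EAVHP_I-int were GGLTR7-int (distance 2.33), GGLTR5B (3.75) and GGLTR10C-int (4.08), where the median distance was 10.8. All 3 were mostly sense in each library, a likeness that the selection on both strands favours. GGLTR7-int had sense shares of 86.7% and 99.1% in the oxidized libraries, compared with 77.8% and 90.9% in the total libraries, and a log2 fold change of 5.08 (edgeR adjusted p = 0.0084). GGLTR5B went with 100% and 99.9% sense after oxidation and 68.1% and 63.6% in total RNA, and GGLTR10C-int with 100% in both oxidized libraries and 57.8% and 66.4% in the total libraries. As in EAVHP_I-int, the sense share of GGLTR5B and GGLTR10C-int was higher in both oxidized libraries than in both total libraries. The selection favours this likeness too.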

How the data were processed

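Each of the 4 libraries came with 6 tables of raw read counts as deposited, once for either strand and once for the reverse strand (48 files). The counter was featureCounts and the build galGal6, per the submitters' processing notes. Aligner, annotation and counter version are not given in the sources used here. Members were found by name, and sense reads are unstranded minus reverse counts, set to 0 where negative in the sense fit.

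The joined tables were fitted in edgeR 4.0.16 (R 4.3.3; default expression filter, no TMM factors, library size the summed unstranded count, adjusted p under 0.05). Standard errors are the log2 fold change over the root of F. The fitting code was run on simulated counts with a single fixed dispersion and no PCR copies. That run does not show how often these libraries give false calls. Alternatives were TMM factors, DESeq2 1.42.0, no filter, other library sizes, the replicate number as a block, oxidized counts divided by 122 or 130.5 reads and each library left out. Exact permutation tests used scipy 1.17.1. A sense share needed at least 20 reads in every library for a test. The sign-flip test, the list of internal rows and the observations were added after the data were seen, and the members, lists and alternatives were chosen with earlier results of these data known. Other features were named by likeness to 2 of the elements. None of 24356 Ensembl IDs matched the names of a RefSeq table (GRCg7b), so no marker genes were looked up, and no sequences are shown. The chi-square per degree of freedom between replicates, with reads taken as independent although PCR copies are not, was 239 for oxidized and 95.8 for total libraries, so no libraries were merged as copies.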

Additional observations from a re-analysis of the deposited data

How the results depend on the processing

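On both strands, GGERVK1-int and EAVHP_I-int kept their direction under all 10 alternatives (log2 fold change 3.98 to 6.24 and 3.74 to 5.67). Their calls held in each alternative that kept every library. In those, 2 or 3 elements were called higher, beside 55 to 74 of 105 TE rows (69 of 171 with no filter). The median shift of all rows was -0.17 with TMM factors and -0.15 with DESeq2. With library sizes that exclude miRNA it was -1.74, and GGERVK1-int and EAVHP_I-int had their lowest values. Leaving out 1 library each gave 0 to 3 elements called higher in sense (main 3), 1 to 2 in antisense (main 1) and 0 to 1 called below the other TE reads (main 1). Among TE rows the counts called higher in sense were 5 without either total replicate (main 54); in such a fit the lone total library is assumed to vary like the oxidized ones. Antisense EAVHP_I-int turned from 2.49 to -1.82 (TMM factors), -2.40 (DESeq2) and -0.29 (replicate block), and ranged from -7.26 to 3.50 with libraries left out. GGERVK1-int relative to other TE reads turned from 0.13 to -0.24 (scaled to other LTR reads) and ranged from -0.16 to 0.48 with libraries left out. The difference in pooled sense share, 6.95 percentage points higher after oxidation, ranged from 0.0904 to 13.8 over the alternatives. Pooled without GGERVK10-int, the share was 74.3% and 79.4% in the oxidized libraries, compared with 69.4% and 78.4% in the total libraries. The groups overlapped with and without that row. Causes were not tested.

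The labels do not tie the replicate numbers to one divided sample, and same-numbered deviations correlated by 0.044 over tested rows. With the replicate block 2 elements were called higher on both strands, 2 in sense, 1 in antisense and 0 below the other TE reads. Among all TE rows these counts were 55 of 105, 33 of 80, 54 of 85 and 3 of 105 (main 71, 54, 65 and 43). The calls of GGERVK10-int on both strands, in sense and below the other TE reads were lost (edgeR adjusted p = 0.30, 0.32 and 0.29). The pair difference stayed 0.24. GGERVK10-int had 17 to 285 reads per library, and antisense EAVHP_I-int 0 to 152, so their values are imprecise.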

Other observations

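The TE table also holds 2 rows named for Rous sarcoma virus, an avian retrovirus of the group to which the avian leukosis viruses belong. RSV-int had 0 reads in either oxidized library, compared with 9 and 4 reads in the total libraries, 2 and 1 of them antisense. At an unchanged share 9.90 reads would be expected over both oxidized libraries, which is 0.0782 of the median of gene rows seen in 1 oxidized library. What that median stands for was not tested. RSV-LTR had 132 and 0 reads in the oxidized libraries, compared with 2 and 0 in the total libraries, none of them antisense.

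Of the 14 other TE rows with a sense share over 50% in both oxidized libraries, 6 were rows named GGLTR10, out of 7 such rows. Mean oxidized levels were 8.54 CPM for GGLTR10A, 21.2 for GGLTR10C1, 25.2 for GGLTR10B and 27.6 for GGLTR10C2. Rows at such low levels rest on few reads, so their sense shares are imprecise. GGLTR10C-int and GGLTR10D-int had 99.3 and 253 CPM. The GGLTR10 rows were named after their values were seen.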
